A study of Mus musculus with 22 samples.

Results

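Microglia treated with a small interfering RNA (siRNA) against Atg5 and then with lipopolysaccharide (LPS) were compared with microglia given LPS alone. These 2 groups made up 8 of the 22 RNA sequencing libraries of the series, chosen by their labels, and 10886 of the 15725 genes in the series table had at least 1 FPKM in at least 3 of the 8 libraries and were tested. FPKM is the number of sequenced fragments of a gene scaled to its transcript length and to the mapped fragments of the library. Both groups were primary cultures, per the labels: mixed glia from the cerebral cortex of C57BL/6J mice aged 1 to 3 days were grown for 8 to 10 days, and the microglia were then shaken off. The group named LPS (n = 3) received LPS, a cell wall component of Gram-negative bacteria, at 100 ng/ml for 24 h. The group named LPS+siAtg5 (n = 5) was transfected with the siRNA at 50 nM by lipofectamine3000 for 48 h and then received the same LPS treatment. LPS was thus common to all 8 libraries, and no culture without LPS was analysed here. Levels are also given for 2 further groups of such cultures, which had the same LPS dose and time. LPS+Baf A1 (n = 5) also received bafilomycin A1 at 10 nM, and LPS+CLA (n = 6) also received CLA at 50 nM. The labels do not say that the LPS cultures were mock transfected, and they give no such 48 h step for them. The knockdown, the transfection and any difference in time or handling before LPS thus cannot be told apart in the values below. The study's own design text sets LPS+siAtg5 against a control named LPS+dNC, whose values are not given here and entered only the 2 alternative settings that take in all 22 libraries. The sources used here do not give whether replicates were separate cultures, and the p-values rest on the spread among these 8 libraries alone, which may be technical.

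Macroautophagy encloses cytoplasm in a membrane vesicle that fuses with lysosomes. ATG5 is joined to ATG12 and, with ATG16L1, forms the E3-like complex that attaches LC3 and GABARAP proteins to the growing membrane, so that cells without it make few functional autophagosomes. In macrophages and microglia the same machinery limits inflammasome activity and the type I interferon response, and also supplies lysosomes with lipid for breakdown. LPS is sensed by TLR4, which activates NF-kB for cytokine and chemokine genes and IRF3 for interferon-beta, whose receptor then drives a second wave of antiviral genes. Double-stranded RNA, such as an siRNA carried in lipid, can itself be read by RNA sensors of the innate immune system.

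The 2 groups differed across most of the measured genes. Within groups, Pearson's correlation of log2(FPKM + 1) over the tested genes was 0.991 to 0.997 for LPS and 0.996 to 0.997 for LPS+siAtg5, while no pair across the groups exceeded 0.938. LPS replicate 3 stood somewhat apart from the other 2 LPS libraries, with Csf1r at 572 FPKM against 1029 and 1005 FPKM. FPKM summed to 469750 to 506565 per LPS library and 475285 to 482854 per LPS+siAtg5 library, but the median gene of the table was at 2.62 to 2.96 FPKM and at 4.53 to 4.80 FPKM. Between 9245 and 9394 genes reached 1 FPKM in an LPS library and between 10752 and 10908 in an LPS+siAtg5 library. Limma with Benjamini-Hochberg adjustment over all tested genes called 6645 genes higher (61% of those tested) and 1625 genes lower (14.9%) in LPS+siAtg5 at an adjusted p under 0.05. With a difference of at least 1 on the log2 scale, which is 2-fold, 1609 (14.8%) were higher and 253 (2.32%) lower. The libraries of the 2 groups did not overlap for 6272 genes that were higher (57.6%) and for 1477 that were lower (13.6%). The counts of list members called below stand against the 61% and 14.9% of all tested genes. The median tested gene was 0.32 higher in LPS+siAtg5 on the log2 scale. After median-of-ratios scaling of the same values the calls became 3470 higher and 4285 lower, so small differences are given below also relative to the median gene. Adjusted p-values below are from this limma fit, and a log2 difference is between group means of log2(FPKM + 1), which compresses differences between low values.

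The cultures carried microglial transcripts in both groups. The summed FPKM of the 30 listed microglia identity genes was 6444 to 6589.7 in LPS and 6416 to 6683 in LPS+siAtg5, and the groups overlapped. C1qa, a complement gene that microglia express strongly, was at 747 to 870.2 FPKM in LPS and 743 to 796 FPKM in LPS+siAtg5. Siglech and Slc2a5, which are among the defining genes of resting microglia, were at or under 0.11 FPKM in all 8 libraries, and Tmem119 was at 1.51 to 1.91 FPKM in LPS.

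Promoter stretches of 7 genes that later paragraphs return to are shown here, because each carries an interferon motif, an NF-kB motif or a CCAAT box. The CCAAT box is common and not particular to sterol genes. The sequences are from RefSeq on GRCm38.p6, end upstream of the RefSeq start of the gene, and are written 5′ to 3′ on the strand of the gene. Capitals mark the motif on either strand. The genes, motifs and stretches were chosen after their values were seen. By the GENCODE gene positions used elsewhere, the Idi1 stretch lies inside the gene and the Cyp51 stretch overlaps its start. The interferon-stimulated response element was searched on both strands as GAAA, 2 bases of any kind and GAAA, and marks the promoters of Rsad2, an antiviral enzyme known as viperin, and Ifit1, which binds foreign RNA.
Rsad2 (chr12:26456528-26456607, minus strand): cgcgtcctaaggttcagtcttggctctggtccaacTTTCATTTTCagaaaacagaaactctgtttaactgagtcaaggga
Ifit1 (chr19:34640759-34640838, plus strand): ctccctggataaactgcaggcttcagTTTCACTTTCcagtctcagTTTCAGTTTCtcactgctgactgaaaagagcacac
The NF-kB motif was searched on both strands as GGGA, 3 bases of any kind and TCC, and its matches on the 2 strands overlap because it is close to a palindrome. It marks the promoters of Cxcl2 and Cxcl3, chemokines that attract neutrophils, and of the cytokine gene Il6.
Cxcl2 (chr5:90903767-90903846, plus strand): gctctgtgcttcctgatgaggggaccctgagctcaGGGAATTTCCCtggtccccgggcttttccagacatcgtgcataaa
Cxcl3 (chr5:90785993-90786072, plus strand): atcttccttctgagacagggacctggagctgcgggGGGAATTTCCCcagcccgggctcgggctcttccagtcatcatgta
Il6 (chr5:30013034-30013113, plus strand): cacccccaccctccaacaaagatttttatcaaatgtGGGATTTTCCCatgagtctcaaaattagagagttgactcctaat
The CCAAT box, searched as CCAAT on both strands, binds NF-Y, a factor that acts together with the sterol-regulated factor SREBP. It marks the promoters of Idi1 and Cyp51, enzymes of cholesterol synthesis. The motif of SREBP itself was not searched.
Idi1 (chr13:8885526-8885605, plus strand): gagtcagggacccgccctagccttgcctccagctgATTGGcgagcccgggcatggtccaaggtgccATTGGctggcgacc
Cyp51 (chr5:4104698-4104777, minus strand): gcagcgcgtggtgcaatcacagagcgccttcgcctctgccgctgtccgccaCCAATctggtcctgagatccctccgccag

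Over the 250 bases upstream of 27025 symbols, the interferon motif was present in 936 of 27025 (3.46%), the NF-kB motif in 1192 of 27025 (4.41%) and CCAAT in 10133 of 27025 (37.5%). Among genes with a window that were at least 2-fold lower in LPS+siAtg5, the interferon motif was found in 29 of 199 (14.6%) and the NF-kB motif in 20 of 199 (10.1%). Among those at least 2-fold higher the counts were 33 of 1250 (2.64%) and 58 of 1250 (4.64%). Over all tested genes with a window they were 316 of 8845 (3.57%) and 480 of 8845 (5.43%). CCAAT was found in 81 of 199 (40.7%) of the lower and 533 of 1250 (42.6%) of the higher genes, near its share of 40.7% among all tested genes with a window. The listed cholesterol synthesis genes with a window held a CCAAT box in 16 of 16 (100%), the listed interferon genes the interferon motif in 20 of 52 (38.5%), and the listed chemokines the NF-kB motif in 4 of 13 (30.8%). A match describes letters in a window and does not show that a factor binds there.

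Atg5 itself was lower in every LPS+siAtg5 library. Atg5 (chr10:44268358-44364291 on the plus strand, GRCm38, a protein-coding gene) was at 20.4, 20.1 and 19.8 FPKM in the LPS libraries and 13.3, 13.5, 12.9, 12.6 and 13.2 FPKM in the LPS+siAtg5 libraries. The groups did not overlap, and Atg5 fell by 0.58 on the log2 scale, or -0.90 relative to the median gene (SE 0.05, adjusted p = 9.8e-07), a decrease of 34.9% in mean FPKM. By exact permutation of the group labels (two-sided) p was 0.0179, which is the lowest value that 3 against 5 libraries allow. In the 2 other groups that were not transfected, Atg5 was at 23.5 to 25.6 FPKM in LPS+Baf A1, with the V-ATPase inhibitor bafilomycin A1, and 22.9 to 25.99 FPKM in LPS+CLA, an agent the labels do not spell out. The siRNA against Atg5 thus went with a partial loss of its transcript, and all 5 transfected libraries lay below every untransfected library of these groups.

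Of the 15 tested genes of LC3 conjugation, 6 rose, 4 fell and 5 did not pass the test, but after median-of-ratios scaling 2 rose and 12 fell, and after quantile normalization 3 rose and 6 fell. The direct partners of ATG5 differed little from LPS alone. Atg12, whose product is joined to ATG5, was at 15.4, 14.4 and 14.5 FPKM in the LPS libraries and 16.4, 16.1, 16.8, 15.6 and 15.7 FPKM in the LPS+siAtg5 libraries, a difference of 0.12 that did not pass the test (adjusted p = 0.058). Atg16l1, which anchors the complex on the membrane, was at 15.04, 16.4 and 13.7 FPKM in the LPS libraries and 12.4, 12.9, 12.6, 12.1 and 12.6 FPKM in the LPS+siAtg5 libraries. It fell by 0.24 on the log2 scale, or -0.56 relative to the median gene (SE 0.062, adjusted p = 0.0043), with no overlap. The E2-like enzyme gene Atg3 fell by 0.25 on the log2 scale (SE 0.056, adjusted p = 0.0019), with 31.6 to 35.9 FPKM in LPS and 26.7 to 29.2 FPKM in LPS+siAtg5. Atg7, the E1-like enzyme that starts both conjugation reactions, was at 11.4 to 14.4 FPKM in LPS and 13.6 to 16.6 FPKM in LPS+siAtg5, and the groups overlapped. Its rise of 0.21 on the log2 scale (SE 0.085, adjusted p = 0.042) was -0.11 relative to the median gene, and without LPS replicate 3 it was 0.12 with an adjusted p of 0.15. Atg10, the E2-like enzyme for ATG12, was at 4.96 to 6.54 FPKM in LPS and 4.1 to 6.03 FPKM in LPS+siAtg5 and did not pass the test (adjusted p = 0.47).

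The proteins that are conjugated are those of the LC3 and GABARAP families. Of the 5 LC3 and GABARAP genes, 4 rose, 0 fell and 1 did not pass the test, against 61% higher over all tested genes. After median-of-ratios scaling Gabarapl2 differed by 0.08 without passing the test, and Gabarap fell by 0.49. Map1lc3a was at 4.02, 4.06 and 4.02 FPKM in the LPS libraries and 9.44, 10.5, 9.92, 10.2 and 10.2 FPKM in the LPS+siAtg5 libraries. It rose by 1.13 on the log2 scale (SE 0.059, adjusted p = 1.8e-08), and the groups were far apart next to the spread within them. Gabarapl1 rose by 0.85 on the log2 scale (SE 0.075, adjusted p = 1.2e-06), with 23.2 to 23.7 FPKM in LPS and 39.1 to 50.97 FPKM in LPS+siAtg5, and shares 25.2% of its 31-base words with other transcripts, so reads could have been split between copies. Gabarapl2 rose by 0.50 on the log2 scale, or 0.18 relative to the median gene (SE 0.074, adjusted p = 8.9e-05). Map1lc3b, the LC3 form most often measured in autophagy assays, was at 47.1 to 52.7 FPKM in LPS and 53.7 to 58.8 FPKM in LPS+siAtg5. Its rise of 0.18 was -0.14 relative to the median gene, and it fell by 0.25 after median-of-ratios scaling. Gabarap, the most abundant of the listed genes in FPKM, did not pass the test (280.0 to 351 FPKM in LPS and 280.2 to 302 FPKM in LPS+siAtg5, adjusted p = 0.52). Of the ATG4 proteases, which trim LC3 before conjugation, Atg4a rose by 0.22 and Atg4d fell by 0.24, while Atg4b differed by 0.18 and Atg4c by -0.07 without passing the test. Atg4a turned to -0.18 after median-of-ratios scaling, and 60.8% of its 31-base words are shared with other transcripts.

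**Figure D1:**
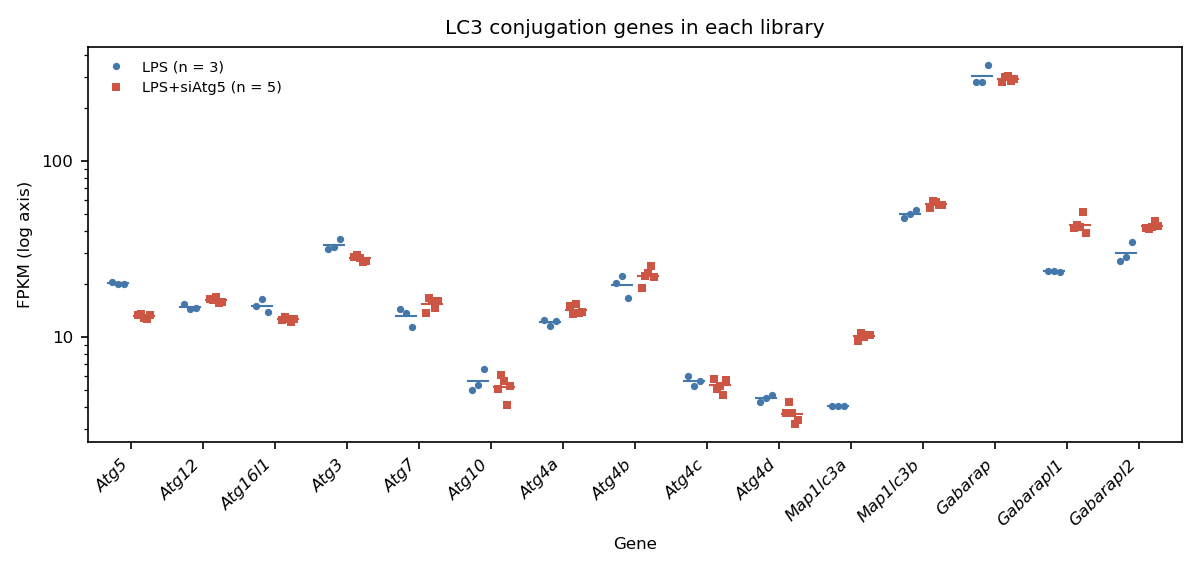
FPKM of 15 LC3 conjugation genes on a log axis in each of the 3 LPS libraries (circles) and 5 LPS+siAtg5 libraries (squares), with a line at each group mean. Atg5 lies at 19.8 to 20.4 FPKM in LPS and 12.6 to 13.5 FPKM in LPS+siAtg5, and Map1lc3a shows the opposite order.

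Upstream of LC3, 5 of 16 initiation and nucleation genes rose and 3 fell, but 2 rose and 12 fell after median-of-ratios scaling and 2 rose and 12 fell after quantile normalization. Wipi1, which binds the phosphoinositide made at the forming membrane, was at 1.9, 2.33 and 1.74 FPKM in the LPS libraries and 6.1, 7.24, 7.28, 7.42 and 6.44 FPKM in the LPS+siAtg5 libraries. It rose by 1.40 on the log2 scale (SE 0.089, adjusted p = 8.1e-08). The kinase gene Ulk2 rose by 0.72 on the log2 scale (SE 0.057, adjusted p = 4.6e-07), with 6.66 to 7.4 FPKM in LPS and 12.3 to 12.6 FPKM in LPS+siAtg5. Uvrag, a subunit of the lipid kinase complex, fell by 0.58 on the log2 scale (SE 0.046, adjusted p = 4.7e-07), with 24.8 to 25.1 FPKM in LPS and 15.9 to 16.7 FPKM in LPS+siAtg5. Rb1cc1, the scaffold of the ULK complex also called FIP200, fell by 0.26 (adjusted p = 0.015), a call that was lost without LPS replicate 2 (adjusted p = 0.073), when 1 gene of the list fell in place of 3.

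Among 12 cargo receptors, which tie cargo to LC3, 4 rose, 1 fell and 7 did not pass the test, but after median-of-ratios scaling 0 rose and 8 fell and after quantile normalization 1 rose and 4 fell. Sqstm1 encodes p62, a receptor that is itself degraded by autophagy and is also induced by NRF2 and NF-kB. Its transcript was at 502, 531 and 613 FPKM in the LPS libraries and 338, 349, 343, 351 and 333 FPKM in the LPS+siAtg5 libraries. It fell by 0.67 on the log2 scale (SE 0.062, adjusted p = 1.7e-06), and the groups did not overlap. The mitophagy receptor gene Bnip3l rose by 0.50 on the log2 scale, or 0.18 relative to the median gene (SE 0.058, adjusted p = 1.1e-05) and Calcoco1, a receptor for the endoplasmic reticulum, by 0.51 on the log2 scale, or 0.19 relative to the median gene (SE 0.07, adjusted p = 4.7e-05). Tax1bp1 was at 60.02 to 62.3 FPKM in LPS and 54.5 to 59.8 FPKM in LPS+siAtg5 and missed the threshold (adjusted p = 0.052), although without LPS replicate 3 it passed (adjusted p = 0.024) and 3 receptors fell. Without LPS+siAtg5 replicate 3, 2 receptors fell.

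Most tested cytokine genes fell, 9 of them at least 2-fold. Of the 17 tested cytokines, 4 rose, 11 fell and 2 did not pass the test, against 61% higher and 14.9% lower over all tested genes, with a list median of -1.14 (-1.46 relative to the median gene). Fewer cytokines rose than fell after both other scalings (2 rose and 13 fell after median-of-ratios scaling). Il1a and Il1b encode alarm cytokines that act on the same receptor. Il1a was at 129, 159.8 and 153 FPKM in the LPS libraries and 13.03, 13.98, 13.7, 14.1 and 14.98 FPKM in the LPS+siAtg5 libraries. Every LPS+siAtg5 library lay far below every LPS library, and Il1a fell by 3.30 on the log2 scale (SE 0.073, adjusted p = 4.7e-11), a 10.5-fold difference of mean FPKM. Il1b was at 884, 970.4 and 1059.6 FPKM in the LPS libraries and 189, 174, 206, 185 and 231 FPKM in the LPS+siAtg5 libraries. It fell by 2.30 on the log2 scale (SE 0.09, adjusted p = 2e-09), again with no overlap. Il6, whose promoter is shown above, was at 41.9, 46.8 and 54.04 FPKM in the LPS libraries and 5.94, 5.25, 5.56, 6.27 and 6.08 FPKM in the LPS+siAtg5 libraries. It fell by 2.83 on the log2 scale (SE 0.084, adjusted p = 2.9e-10).

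Tnf, the cytokine gene most often used to read LPS activation, changed far less. It was at 202, 207 and 274 FPKM in the LPS libraries and 164, 152, 165, 156 and 155 FPKM in the LPS+siAtg5 libraries. It fell by 0.50 on the log2 scale, or -0.82 relative to the median gene (SE 0.089, adjusted p = 0.00033), and its highest LPS+siAtg5 library lay at 165 FPKM, below the lowest LPS library at 202 FPKM. The death ligand gene Tnfsf10 fell by 1.97 on the log2 scale (SE 0.092, adjusted p = 7.4e-09), with 22.9 to 30.7 FPKM in LPS and 5.49 to 6.54 FPKM in LPS+siAtg5. Il10, which encodes a cytokine that restrains inflammation, moved the other way. It was at 5.71, 5.98 and 11.2 FPKM in the LPS libraries and 26.4, 25.02, 25.02, 28.5 and 22.6 FPKM in the LPS+siAtg5 libraries. It rose by 1.67 on the log2 scale (SE 0.17, adjusted p = 3.6e-06), although LPS replicate 3 was nearly at 2 times the level of the other LPS libraries. Csf1, the growth factor that microglia depend on, rose by 0.92 on the log2 scale (SE 0.074, adjusted p = 5.6e-07), with 7.08 to 8.8 FPKM in LPS and 15.1 to 17.4 FPKM in LPS+siAtg5. Tgfb1 was at 102 to 119 FPKM in LPS and 123 to 132 FPKM in LPS+siAtg5, a rise of 0.24 that was -0.08 relative to the median gene and turned to -0.19 after median-of-ratios scaling.

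Chemokines followed the same order by counts. Of 19 tested, 4 rose, 13 fell and 2 did not pass the test, with a median of -0.84 (-1.16 relative to the median gene), and 4 rose and 15 fell after median-of-ratios scaling. Cxcl3 was at 49.3, 56.8 and 63.5 FPKM in the LPS libraries and 4.97, 4.74, 4.3, 5.51 and 4.77 FPKM in the LPS+siAtg5 libraries. It fell by 3.29 on the log2 scale (SE 0.089, adjusted p = 1.6e-10), 11.6-fold in mean FPKM. Cxcl2 was at 198, 202 and 219 FPKM in the LPS libraries and 22.4, 22.9, 23.3, 25.4 and 21.6 FPKM in the LPS+siAtg5 libraries. It fell by 3.10 on the log2 scale (SE 0.059, adjusted p = 2.1e-11), so both neutrophil chemokines with an NF-kB motif shown above were among the 12 largest falls. The monocyte attractants Ccl7 and Ccl8 fell by 2.60 and 2.13 on the log2 scale, Ccl7 with 1272 to 1747 FPKM in LPS and 219 to 250.4 FPKM in LPS+siAtg5 and Ccl8 with 30.4 to 50.96 FPKM in LPS and 7.11 to 9.33 FPKM in LPS+siAtg5. Ccl9 rose by 0.79 on the log2 scale (SE 0.097, adjusted p = 1.9e-05), with 136 to 192 FPKM in LPS and 258 to 277 FPKM in LPS+siAtg5, and Cxcl14 by 1.19 on the log2 scale (SE 0.076, adjusted p = 8.6e-08), with 4.54 to 4.95 FPKM in LPS and 10.9 to 13.3 FPKM in LPS+siAtg5.

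Enzymes that make inflammatory mediators fell with them. Nos2, the inducible nitric oxide synthase, was at 169.6, 169 and 222 FPKM in the LPS libraries and 16.1, 19.2, 16.7, 17.4 and 13.9 FPKM in the LPS+siAtg5 libraries. It fell by 3.41 on the log2 scale (SE 0.11, adjusted p = 4.6e-10), 11.2-fold in mean FPKM. Arg2, the mitochondrial arginase, was at 19.8, 20.5 and 22.8 FPKM in the LPS libraries and 0.85, 1.29, 1.35, 1.06 and 1.07 FPKM in the LPS+siAtg5 libraries. It fell by 3.38 on the log2 scale (SE 0.091, adjusted p = 1.6e-10), about as much as Nos2, and 23.6% of its 31-base words are shared with other transcripts. Arg1, the cytosolic arginase that is used as a marker of alternative activation, was low in both groups, at 5.4, 5.7 and 9.76 FPKM in the LPS libraries and 2.38, 2.45, 1.41, 2.47 and 2.43 FPKM in the LPS+siAtg5 libraries. It fell by 1.27 on the log2 scale (SE 0.18, adjusted p = 4.9e-05). Acod1, which makes itaconate, fell by 1.01 on the log2 scale (SE 0.059, adjusted p = 4.4e-08), with 1148 to 1381 FPKM in LPS and 597 to 626 FPKM in LPS+siAtg5. Odc1, which turns ornithine into polyamines, rose by 1.08 on the log2 scale (SE 0.064, adjusted p = 4.9e-08), the only rise among the 10 listed genes, of which 8 fell.

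Prostaglandin and leukotriene genes split. Of 11 tested, 4 rose and 4 fell, and after median-of-ratios scaling 3 rose and 7 fell. Ptgs2, the inducible cyclooxygenase, was at 104, 106 and 128 FPKM in the LPS libraries and 11.8, 12.1, 13.2, 11.7 and 12.6 FPKM in the LPS+siAtg5 libraries. It fell by 3.09 on the log2 scale (SE 0.073, adjusted p = 7.3e-11). Alox5ap, which activates the lipoxygenase that starts leukotriene synthesis, rose by 1.39 on the log2 scale (SE 0.12, adjusted p = 9.4e-07), with 18.8 to 25.5 FPKM in LPS and 50.7 to 69.9 FPKM in LPS+siAtg5. Ptgds was at 0.49, 0.2 and 0.71 FPKM in the LPS libraries and 3.53, 2.07, 2.31, 16.8 and 8.13 FPKM in the LPS+siAtg5 libraries, and its LPS+siAtg5 libraries spread by a factor of 8.1. Of 7 inflammasome genes, 1 rose, 5 fell and 1 did not pass the test. The sensor gene Nlrp3 fell by 1.80 on the log2 scale (SE 0.085, adjusted p = 8.2e-09), with 78.4 to 102 FPKM in LPS and 23.5 to 27.5 FPKM in LPS+siAtg5, and Casp4, which senses LPS in the cytosol, by 1.47 on the log2 scale (SE 0.09, adjusted p = 6.3e-08), with 158 to 184 FPKM in LPS and 50.05 to 67.8 FPKM in LPS+siAtg5. The adaptor gene Pycard, also called ASC, rose by 1.14 on the log2 scale (SE 0.14, adjusted p = 2.3e-05), with 12.6 to 20.9 FPKM in LPS and 33.3 to 44.6 FPKM in LPS+siAtg5.

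**Figure D2:**
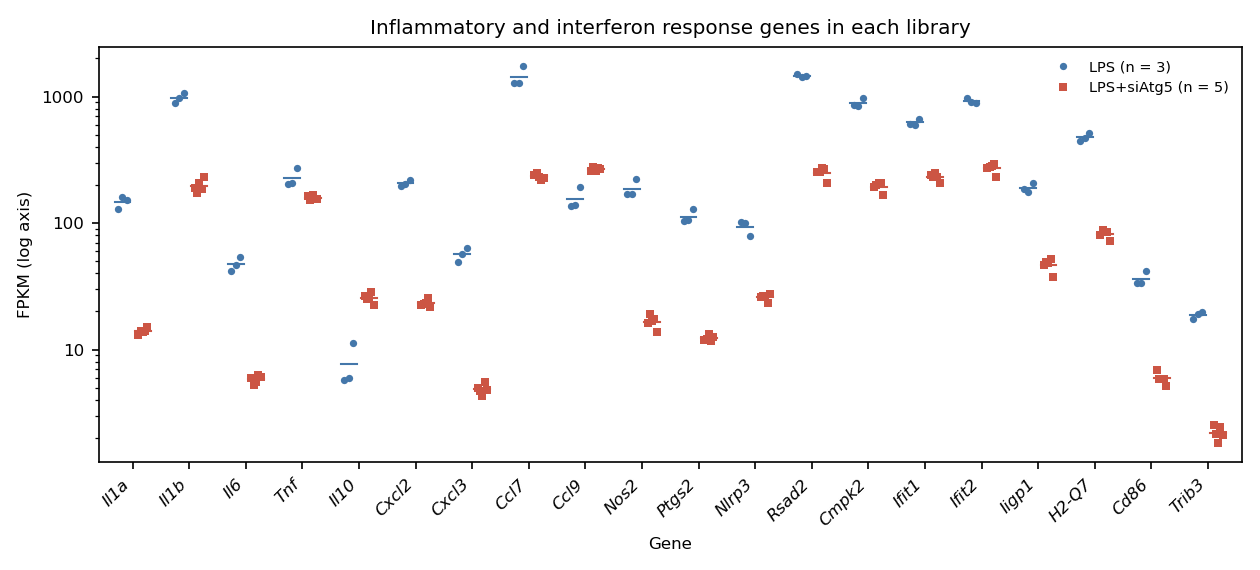
FPKM of 20 cytokine, chemokine, enzyme, interferon response, antigen presentation and stress genes on a log axis in each LPS library (circles, n = 3) and LPS+siAtg5 library (squares, n = 5), with a line at each group mean. Il10 and Ccl9 are higher in LPS+siAtg5, Tnf is slightly lower, and the other 17 genes are lower with wide gaps.

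Genes of LPS sensing and NF-kB differed by role. Of 31 listed genes, 6 rose, 17 fell and 8 did not pass the test, and 2 rose and 26 fell after median-of-ratios scaling. Among the 16 receptors and adaptors, 5 rose and 4 fell. The 4 that fell (named after their values were seen) were Tlr4 by 0.99, Cd14 by 0.81, Myd88 by 0.36 and Irak2 by 0.22. Lbp, which hands LPS to CD14, was at 0.31, 0.37 and 0.96 FPKM in the LPS libraries and 3.48, 6.38, 4.36, 6.51 and 4.9 FPKM in the LPS+siAtg5 libraries. It rose by 1.98 on the log2 scale (SE 0.18, adjusted p = 1.8e-06) from levels near 0. The adaptor gene Tirap rose by 0.77 on the log2 scale (SE 0.10, adjusted p = 4e-05), with 6.15 to 8.79 FPKM in LPS and 12.3 to 14.5 FPKM in LPS+siAtg5. All 5 NF-kB subunit genes fell (named after their values were seen), with differences of -0.86 for Nfkb2, -0.71 for Nfkb1, -0.64 for Rela, -0.58 for Rel and -0.55 for Relb. Of 10 feedback inhibitors, which NF-kB and cytokines themselves induce, 8 fell. Socs3 was at 242, 259.9 and 269 FPKM in the LPS libraries and 96.2, 95.6, 89.7, 86.8 and 99.01 FPKM in the LPS+siAtg5 libraries. It fell by 1.45 on the log2 scale (SE 0.057, adjusted p = 2e-09). Tnfaip3, the ubiquitin-editing enzyme A20, fell by 1.29 on the log2 scale (SE 0.058, adjusted p = 5.2e-09) and Nfkbie, an inhibitor that holds NF-kB in the cytoplasm, by 1.28 on the log2 scale (SE 0.064, adjusted p = 1.2e-08). Socs1 fell by 1.09 on the log2 scale (SE 0.092, adjusted p = 8.6e-07), with 9.59 to 13.1 FPKM in LPS and 4.27 to 4.97 FPKM in LPS+siAtg5.

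Most genes of the interferon response fell, and none rose. Of 62 tested, 0 rose, 55 fell and 7 did not pass the test, with a median of -0.57 (-0.89 relative to the median gene). None rose under the other scalings, and without LPS replicate 3 the count of genes that rose was 1. All 37 tested antiviral effectors and all 9 interferon-inducible GTPases fell, against 14.9% lower over all genes. Of the 16 ligands, receptors and transcription factors, 9 fell and 7 did not pass the test. Rsad2, with an interferon motif shown above, was at 1499.8, 1426 and 1452 FPKM in the LPS libraries and 255.1, 253, 271, 267 and 205 FPKM in the LPS+siAtg5 libraries. It fell by 2.54 on the log2 scale (SE 0.082, adjusted p = 5e-10), 5.83-fold in mean FPKM. Cmpk2, a nucleotide kinase whose gene lies beside Rsad2, fell by 2.19 on the log2 scale (SE 0.079, adjusted p = 1.1e-09), with 841 to 973 FPKM in LPS and 165 to 207 FPKM in LPS+siAtg5. Ifit2, which binds viral RNA, was at 966, 905 and 889.8 FPKM in the LPS libraries and 273, 278, 285, 292 and 229.9 FPKM in the LPS+siAtg5 libraries. It fell by 1.76 on the log2 scale (SE 0.074, adjusted p = 3.4e-09). Ifit1, which was chosen after its values were seen, fell by 1.42 on the log2 scale (SE 0.063, adjusted p = 5.2e-09), with 593 to 669.9 FPKM in LPS and 209 to 248 FPKM in LPS+siAtg5. Its relative Ifit1bl1 was at 519 to 707 FPKM in LPS and 52.4 to 82.5 FPKM in LPS+siAtg5 and fell by 3.02, 1 of the 12 largest falls. The GTPase gene Iigp1, which attacks the vacuoles of parasites, fell by 1.997 on the log2 scale (SE 0.095, adjusted p = 8.8e-09), with 175 to 207 FPKM in LPS and 37.7 to 52.3 FPKM in LPS+siAtg5. Slfn4, a myeloid gene of the Schlafen family, was at 541, 558 and 548 FPKM in the LPS libraries and 78.3, 74.7, 69.4, 63.5 and 63.8 FPKM in the LPS+siAtg5 libraries. It fell by 2.96 on the log2 scale (SE 0.071, adjusted p = 7.6e-11), and 20.9% of its 31-base words are shared with other transcripts.

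Transfection brings double-stranded RNA into cells, so its sensors and the RNA interference machinery were read by role. Of 7 nucleic acid sensors and adaptors, 1 rose, 5 fell and 1 did not pass the test. Tlr3, which detects double-stranded RNA in endosomes, fell by 1.00 on the log2 scale (SE 0.065, adjusted p = 9.1e-08), with 64.6 to 77.99 FPKM in LPS and 33.8 to 37.8 FPKM in LPS+siAtg5. Tlr7, which detects single-stranded RNA, fell by 0.55 on the log2 scale, or -0.87 relative to the median gene (SE 0.064, adjusted p = 1.1e-05). The DNA sensor gene Cgas fell by 0.99 on the log2 scale (SE 0.082, adjusted p = 6.9e-07), and Adar, which edits double-stranded RNA, by 0.57 on the log2 scale, or -0.89 relative to the median gene (SE 0.058, adjusted p = 4.1e-06). Mavs, the adaptor of the cytosolic RNA sensors, rose by 0.77 on the log2 scale (SE 0.063, adjusted p = 6.6e-07), with 6.68 to 7.74 FPKM in LPS and 12.4 to 13.8 FPKM in LPS+siAtg5. The cytosolic RNA sensor genes Ddx58, Ifih1, Dhx58 and Eif2ak2 are counted in the interferon list instead. They fell by 0.64, 0.80, 0.54 and 0.34 (named after their values were seen). Of 13 RNA interference genes, 8 rose, 0 fell and 5 did not pass the test, against 61% higher over all tested genes, and their median of 0.32 was that of all genes. Ago1, an Argonaute protein that holds the guide strand, rose by 0.78 on the log2 scale (SE 0.12, adjusted p = 9e-05), Prkra, a partner of Dicer, by 0.97 on the log2 scale (SE 0.079, adjusted p = 6.2e-07), and Xpo5, which exports miRNA precursors, by 0.59 on the log2 scale (SE 0.063, adjusted p = 5.9e-06). Over both roles together, 9 rose and 5 fell, but 4 rose and 9 fell after median-of-ratios scaling and 5 rose and 10 fell after quantile normalization, and 8 fell without LPS replicate 3.

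Most antigen presentation and costimulation genes fell. Of 17 MHC class I genes, 1 rose, 13 fell and 3 did not pass the test, and 0 rose and 16 fell after median-of-ratios scaling. H2-Q7 was at 446, 470.5 and 511 FPKM in the LPS libraries and 80.5, 87.5, 85.5, 84.9 and 71.99 FPKM in the LPS+siAtg5 libraries. It fell by 2.52 on the log2 scale (SE 0.07, adjusted p = 1.9e-10), while the classical gene H2-D1 was at 2143 to 2364 FPKM in LPS and 2070.1 to 2148 FPKM in LPS+siAtg5 and did not pass the test (adjusted p = 0.064). H2-Q7, H2-Q4 and H2-D1 share 39.2%, 53% and 26.9% of their 31-base words with other transcripts, so reads could have been assigned to the wrong member. Nlrc5, the transactivator of MHC class I genes, fell by 1.35 on the log2 scale (SE 0.049, adjusted p = 1.1e-09) and Tap1, which carries peptides into the endoplasmic reticulum, by 0.73 on the log2 scale (SE 0.044, adjusted p = 5.3e-08). Psme2, a proteasome activator subunit, rose by 0.19 but turned to -0.25 after median-of-ratios scaling. Of 4 tested MHC class II genes, 2 fell (1 without LPS replicate 3) and 1 rose. Cd74, the invariant chain, was at 30.2, 32.5 and 43.7 FPKM in the LPS libraries and 3.62, 5.04, 3.53, 5.96 and 5.09 FPKM in the LPS+siAtg5 libraries. It fell by 2.69 on the log2 scale (SE 0.16, adjusted p = 4.1e-08). Cd86, a costimulatory ligand, was at 33.4, 33.4 and 41.7 FPKM in the LPS libraries and 6.87, 5.8, 5.88, 5.89 and 5.11 FPKM in the LPS+siAtg5 libraries. It fell by 2.42 on the log2 scale (SE 0.095, adjusted p = 2e-09). Cd40, Cd83 and Cd274, the gene of the checkpoint ligand PD-L1, fell by 1.37, 1.51 and 1.48 on the log2 scale, and none of the 3 had overlapping groups. Havcr2, also called TIM-3, was at 0.21 to 0.37 FPKM in LPS and 1.19 to 1.6 FPKM in LPS+siAtg5 and rose by 0.89, but turned to -0.012 after quantile normalization.

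Several of the largest falls lay outside the lists. Serpinb2, an inhibitor of plasminogen activators that LPS induces in macrophages, was at 391, 409 and 425 FPKM in the LPS libraries and 15.6, 16.6, 16.7, 13.8 and 18.4 FPKM in the LPS+siAtg5 libraries. It fell by 4.58 on the log2 scale (SE 0.078, adjusted p = 2.1e-11), more than any other called gene with at least 5 FPKM in the higher group. Thbs1, which encodes the matrix protein thrombospondin, was at 321, 339 and 269 FPKM in the LPS libraries and 31.03, 34.5, 33.5, 35.4 and 31.97 FPKM in the LPS+siAtg5 libraries. It fell by 3.17 on the log2 scale (SE 0.074, adjusted p = 6.7e-11). Stfa3, an inhibitor of cysteine proteases, fell by 3.17 on the log2 scale (SE 0.16, adjusted p = 1.7e-08), with 16.7 to 25.2 FPKM in LPS and 0.99 to 2.11 FPKM in LPS+siAtg5.

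Listed genes of endoplasmic reticulum stress and of the factor ATF4 split, with the largest falls in Trib3 and Ddit3. Of 25 listed genes, 9 rose, 13 fell and 3 did not pass the test, and 7 rose and 16 fell after median-of-ratios scaling. Trib3, a pseudokinase induced by ATF4, was at 17.3, 19.1 and 19.9 FPKM in the LPS libraries and 2.51, 2.15, 1.82, 2.44 and 2.11 FPKM in the LPS+siAtg5 libraries. It fell by 2.63 on the log2 scale (SE 0.086, adjusted p = 5.8e-10). Ddit3, which encodes the stress factor CHOP, fell by 1.53 on the log2 scale (SE 0.076, adjusted p = 1.2e-08), with 140.4 to 175 FPKM in LPS and 47.5 to 54.9 FPKM in LPS+siAtg5. Chac1, which breaks down glutathione, and the mitochondrial folate enzyme gene Mthfd2 each fell by 1.27. Pdia6, a protein-folding enzyme, rose by 0.82 on the log2 scale (SE 0.043, adjusted p = 1.7e-08), with 77.99 to 80.8 FPKM in LPS and 137 to 146 FPKM in LPS+siAtg5. Phgdh, which starts serine synthesis, rose by 1.26 on the log2 scale (SE 0.074, adjusted p = 4.6e-08), and 56.3% of its 31-base words are shared with other transcripts. Psat1, on the same list, rose by 0.82.

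**Figure D3:**
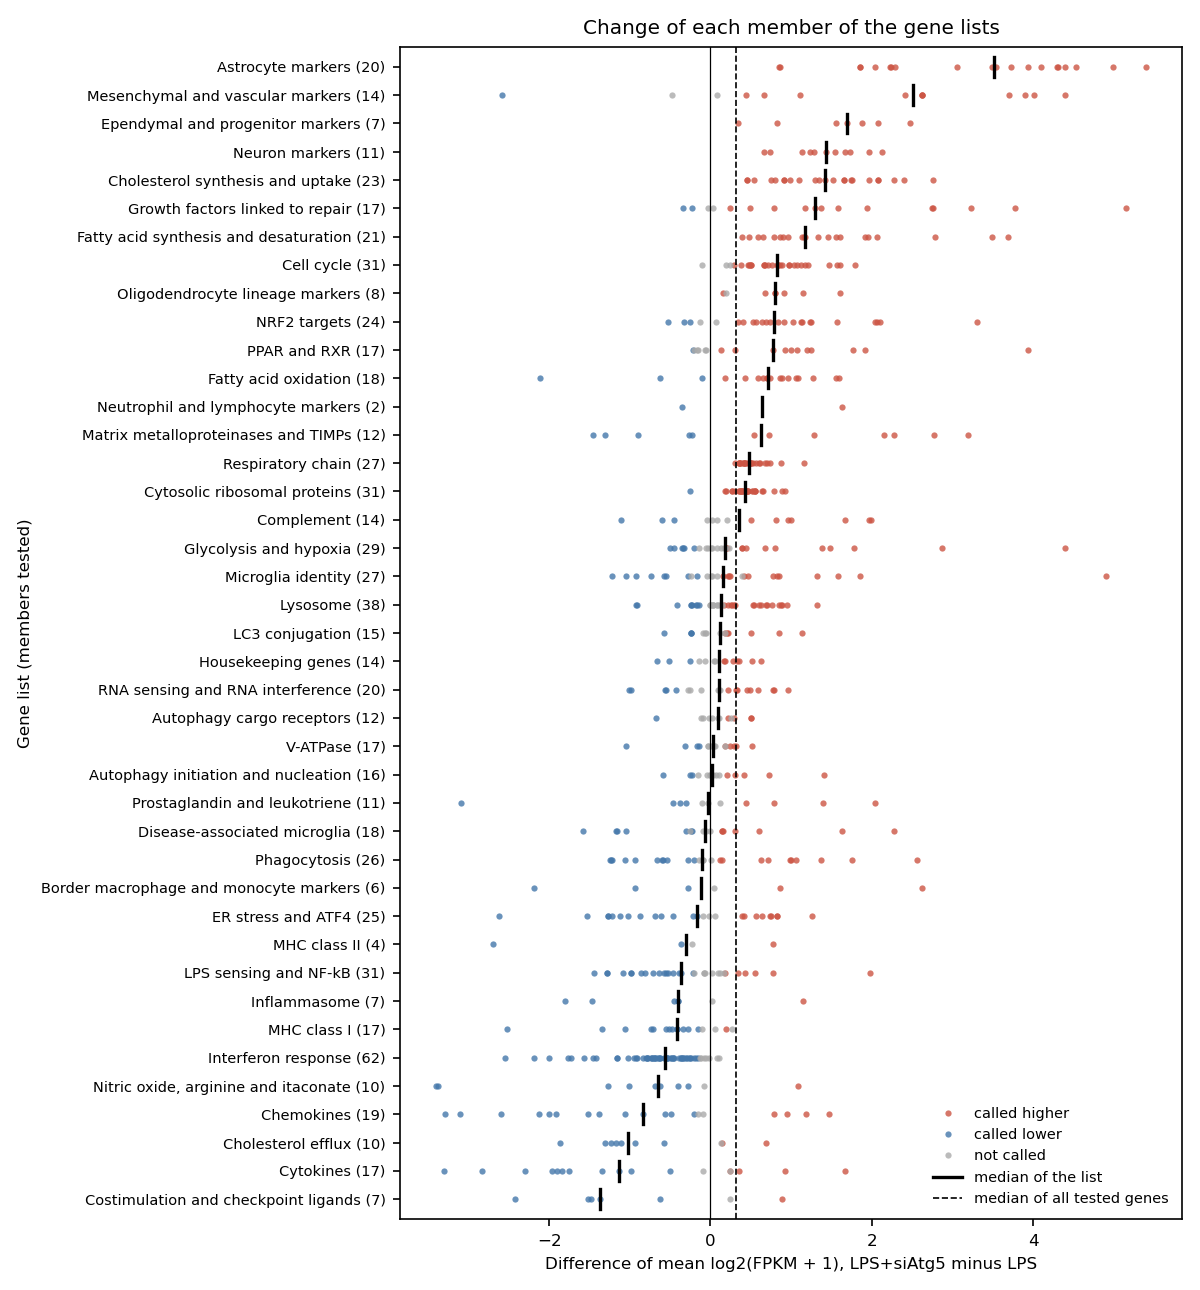
Difference of mean log2(FPKM + 1), LPS+siAtg5 minus LPS, of each tested member (points) of 41 gene lists, ordered by the list median (thick line), with the number of tested members in brackets. The dashed line marks the median of all 10886 tested genes at 0.32, and astrocyte markers lie at the top and costimulation ligands at the bottom.

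Astrocyte markers were among the largest rises. All 20 tested astrocyte markers of 22 listed rose, 18 of them at least 2-fold, against 61% and 14.8% over all genes, with a median of 3.51 (3.20 relative to the median gene). Gfap, the intermediate filament of astrocytes (chr11:102887336-102900912 on the minus strand, GRCm38), was at 1.42, 1.83 and 2.89 FPKM in the LPS libraries and 124, 134, 114, 132 and 126 FPKM in the LPS+siAtg5 libraries. It rose by 5.41 on the log2 scale (SE 0.12, adjusted p = 6.4e-11), 61.5-fold in mean FPKM and the largest rise among genes with at least 5 FPKM in the higher group. Aqp4, the water channel of astrocyte endfeet, was at 0.47, 1 and 0.68 FPKM in the LPS libraries and 55.2, 54.5, 51.1, 54.95 and 51.3 FPKM in the LPS+siAtg5 libraries. It rose by 5.00 on the log2 scale (SE 0.088, adjusted p = 2.1e-11). Clu, a secreted chaperone, was at 1.49, 1.69 and 2.59 FPKM in the LPS libraries and 64.1, 72.7, 59.5, 70.2 and 62.6 FPKM in the LPS+siAtg5 libraries. It rose by 4.53 on the log2 scale (SE 0.11, adjusted p = 8.6e-11). Aldoc, the aldolase of astrocytes, rose by 4.40 on the log2 scale (SE 0.11, adjusted p = 8.4e-11), with 0.28 to 0.76 FPKM in LPS and 27.1 to 32.2 FPKM in LPS+siAtg5. The 22 markers summed to 376 to 471 FPKM per LPS library and 1249 to 1449 FPKM per LPS+siAtg5 library. Without Vim, which microglia also express, the sums were 40.7 to 41.9 and 615 to 732 FPKM. Gjb6 and Ntsr2 were listed at 0 in all LPS libraries, at up to 0.16 FPKM for Gjb6 and 0.64 FPKM for Ntsr2 in LPS+siAtg5. In these bulk libraries, more cells of a type and more RNA of that type per cell cannot be told apart.

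Most markers of further lineages rose with them, but vascular markers differed by member. Of 14 tested mesenchymal and vascular markers of 19 listed, 11 rose, 1 fell and 2 did not pass the test, and their sum was 34.7 to 36.9 FPKM in LPS and 175 to 229 FPKM in LPS+siAtg5. Acta2, the actin of smooth muscle and myofibroblasts, was at 1.12, 1.59 and 1.23 FPKM in the LPS libraries and 45.6, 54.1, 44.7, 52.2 and 42.03 FPKM in the LPS+siAtg5 libraries. It rose by 4.40 on the log2 scale (SE 0.095, adjusted p = 4.3e-11). Col1a1, a collagen chain of fibroblasts, was at 0.49, 0.4 and 0.54 FPKM in the LPS libraries and 18.6, 20.8, 20.9, 23.1 and 22.1 FPKM in the LPS+siAtg5 libraries. It rose by 3.90 on the log2 scale (SE 0.077, adjusted p = 2.5e-11). Tagln rose by 4.02, with 62.2% of its 31-base words shared with other transcripts, and Fn1, which encodes fibronectin, by 2.63. Kdr, a receptor for the growth factor VEGF, went the other way and fell by 2.58 on the log2 scale (SE 0.10, adjusted p = 2.4e-09), with 9.63 to 13.4 FPKM in LPS and 1.05 to 1.32 FPKM in LPS+siAtg5. The vascular marker Cdh5 differed by 0.08 without passing the test, and Pecam1 (named after its values were seen) rose by 0.44. Dcn, also on the list, was at 7.2 to 11.1 FPKM in LPS and 4.02 to 10.6 FPKM in LPS+siAtg5. Its difference of -0.47 did not pass the test. The pericyte marker Rgs5 was listed at 0 in all LPS libraries and reached 0.07 FPKM in LPS+siAtg5.

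All 11 tested neuron markers of 15 listed rose, and 9 rose and 1 fell after quantile normalization. Their sum was 15.8 to 20.9 FPKM in LPS and 70.05 to 87.4 FPKM in LPS+siAtg5. Stmn2, a microtubule regulator of growing axons, was at 1.37, 1.43 and 1.45 FPKM in the LPS libraries and 9.21, 11.4, 8.79, 10.99 and 7.85 FPKM in the LPS+siAtg5 libraries. It rose by 2.13 on the log2 scale (SE 0.11, adjusted p = 1.5e-08). Map2 and Dcx, proteins of dendrites and of migrating young neurons, rose by 1.97 and 1.73, while Slc17a7, the transporter of excitatory neurons, was at or under 0.04 FPKM in all 8 libraries. Of 8 tested oligodendrocyte lineage markers of 15 listed, 7 rose, but 3 rose and 1 fell after quantile normalization, and their sum was 73.5 to 85.8 and 105 to 109.5 FPKM. Olig1, a lineage factor, rose by 1.605 on the log2 scale (SE 0.078, adjusted p = 1e-08), with 1.81 to 2.02 FPKM in LPS and 7.15 to 8.91 FPKM in LPS+siAtg5, and Mag, a myelin glycoprotein, by 1.14 on the log2 scale (SE 0.077, adjusted p = 1.3e-07). All 7 tested ependymal and progenitor markers of 9 listed rose, with sums of 10.7 to 12.1 and 34.1 to 42.2 FPKM. Foxj1, the factor for motile cilia, was at 0.03 to 0.29 FPKM in LPS and 4.8 to 5.84 FPKM in LPS+siAtg5 and Sox2, a stem cell factor, at 1.97 to 2.02 FPKM in LPS and 10.5 to 13.1 FPKM in LPS+siAtg5. Of 6 tested border macrophage and monocyte markers of 14 listed, 2 rose and 3 fell, and without a filter on low values 5 fell. The 2 that rose were Fn1, which is on the mesenchymal list too, and Plac8. Plac8 was at 0 to 0.06 FPKM in LPS and 0.35 to 1.41 FPKM in LPS+siAtg5. Lyve1, Cd163 and Chil3 were at or under 0.03 FPKM throughout. Pf4 fell by 2.19 on the log2 scale (SE 0.085, adjusted p = 1.9e-09), with 88.5 to 103 FPKM in LPS and 18.7 to 24.6 FPKM in LPS+siAtg5, and Mrc1, the mannose receptor, by 0.93. Of 2 tested neutrophil and lymphocyte markers of 12 listed, 1 rose and 1 fell, and the sum of the list was 7.08 to 14.03 FPKM in LPS and 22.7 to 34.6 FPKM in LPS+siAtg5. S100a8, a calcium-binding protein abundant in neutrophils, was at 5.61, 7.7 and 12.4 FPKM in the LPS libraries and 22.5, 33.5, 21.4, 28.4 and 33.6 FPKM in the LPS+siAtg5 libraries. It rose by 1.63 on the log2 scale (SE 0.21, adjusted p = 3.1e-05) with no overlap, while Camp, an antimicrobial peptide of neutrophil granules, fell by 0.36 with overlapping groups.

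**Figure D4:**
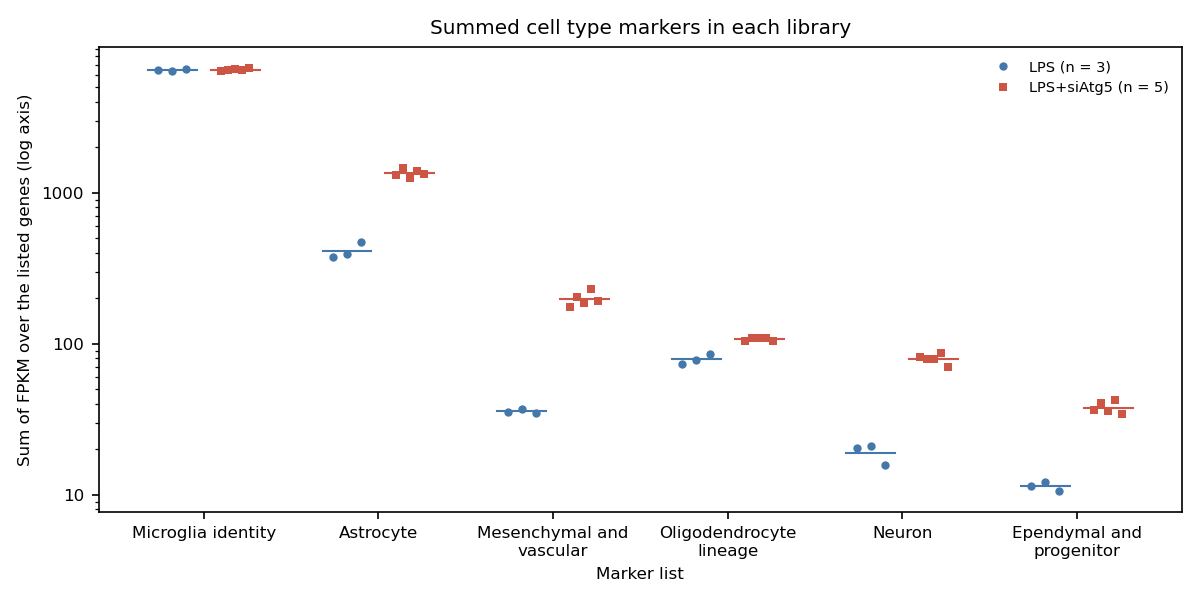
Sum of FPKM over the genes of 6 marker lists, on a log axis, in each LPS library (circles, n = 3) and LPS+siAtg5 library (squares, n = 5), with a line at each group mean. Microglia identity genes sum to about the same in both groups, and the 5 other lists are higher in every LPS+siAtg5 library.

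Several of the largest rises lay outside the marker lists. Mt2 and Mt3 are metallothioneins, which bind zinc and copper. Mt2 was at 7.01, 7.4 and 9.95 FPKM in the LPS libraries and 265, 289, 246, 296 and 259 FPKM in the LPS+siAtg5 libraries. It rose by 4.91 on the log2 scale (SE 0.099, adjusted p = 2.7e-11), with 58.1% of its 31-base words shared with other transcripts. Mt3, a form found mostly in brain, rose by 5.19 on the log2 scale (SE 0.14, adjusted p = 1.5e-10), with 0.58 to 0.99 FPKM in LPS and 51.1 to 79.04 FPKM in LPS+siAtg5. The small heat shock genes Hspb8 and Cryab rose by 4.99 and 4.53, Hspb8 with 0.65 to 1.05 FPKM in LPS and 52.5 to 62.5 FPKM in LPS+siAtg5. Serpina3n, a secreted protease inhibitor that marks reactive astrocytes, was at 0.75, 1 and 2.01 FPKM in the LPS libraries and 59.01, 61.8, 50.2, 67.6 and 70.5 FPKM in the LPS+siAtg5 libraries. It rose by 4.83 on the log2 scale (SE 0.16, adjusted p = 6e-10), and 21.6% of its 31-base words are shared with other transcripts. The part of the summed astrocyte, mesenchymal and neuron markers in these rises was not tested. Nor was it tested for the rises of any other list above or below, among them the lipid, antioxidant, growth factor, cell cycle, phagocytosis, complement and autophagy genes.

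Genes that make fatty acids rose without exception. All 21 tested genes of fatty acid synthesis and desaturation rose, 13 of them at least 2-fold, against 61% and 14.8% over all tested genes. Their median was 1.17 (0.85 relative to the median gene), and 19 rose and none fell after median-of-ratios scaling. Fads2 and Fads1 are the desaturases that turn linoleic acid and its omega-3 counterpart into longer polyunsaturated fatty acids. Fads2 (chr19:10062765-10101746 on the minus strand, GRCm38) was at 0.9, 0.92 and 1.07 FPKM in the LPS libraries and 24.4, 24.3, 22.6, 26.8 and 23.4 FPKM in the LPS+siAtg5 libraries. It rose by 3.69 on the log2 scale (SE 0.069, adjusted p = 2.1e-11), 25.2-fold in mean FPKM. Fads1 was at 7.81, 7.78 and 5.73 FPKM in the LPS libraries and 20.5, 20.99, 20.5, 21.7 and 21.9 FPKM in the LPS+siAtg5 libraries. It rose by 1.46 on the log2 scale (SE 0.087, adjusted p = 5e-08), so the rise of Fads1 was smaller than that of Fads2 on this scale. Scd2, a desaturase that makes monounsaturated fatty acids, was at 4.41, 4.54 and 3.28 FPKM in the LPS libraries and 54.1, 58.1, 51.8, 60.2 and 54.8 FPKM in the LPS+siAtg5 libraries. It rose by 3.49 on the log2 scale (SE 0.087, adjusted p = 9.4e-11). Scd1, its relative, was at 0.22, 0.3 and 0.33 FPKM in the LPS libraries and 8.59, 8.16, 7.01, 8.51 and 6.96 FPKM in the LPS+siAtg5 libraries. It rose by 2.78 on the log2 scale (SE 0.087, adjusted p = 4.2e-10) from levels under 1 FPKM. Me1, which supplies NADPH for synthesis, rose by 2.06 on the log2 scale (SE 0.055, adjusted p = 1.6e-10), and 36.9% of its 31-base words are shared with other transcripts. In these libraries the summed astrocyte markers without Vim, which microglia also express, were 615 to 732 FPKM, against 40.7 to 41.9 FPKM in LPS. With Vim the sums were 1249 to 1449 FPKM and 376 to 471 FPKM.

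Genes of cholesterol synthesis rose and most of those for its export fell. All 23 tested genes of synthesis and uptake rose, 15 of them at least 2-fold, against 61% and 14.8% over all tested genes. Their median was 1.42 (1.10 relative to the median gene), and 21 rose and none fell after median-of-ratios scaling. Sqle, which epoxidizes squalene, was at 1.3, 1.19 and 1.23 FPKM in the LPS libraries and 13.99, 13.1, 14.6, 15.2 and 14.1 FPKM in the LPS+siAtg5 libraries. It rose by 2.76 on the log2 scale (SE 0.066, adjusted p = 7.4e-11). Fdft1, which makes squalene, was at 1.85, 2.06 and 2.29 FPKM in the LPS libraries and 12.1, 12.1, 11.2, 12.1 and 12.1 FPKM in the LPS+siAtg5 libraries. It rose by 2.08 on the log2 scale (SE 0.068, adjusted p = 5.5e-10). Cyp51, a demethylase of lanosterol whose promoter is shown above, was at 1.52, 1.59 and 1.24 FPKM in the LPS libraries and 11.3, 12.2, 11.5, 12.2 and 12.1 FPKM in the LPS+siAtg5 libraries. It rose by 2.40 on the log2 scale (SE 0.07, adjusted p = 2.7e-10). Idi1, with 2 CCAAT boxes in its shown stretch, rose by 2.27 on the log2 scale (SE 0.12, adjusted p = 1.5e-08), with 1.6 to 2.18 FPKM in LPS and 10.97 to 15.9 FPKM in LPS+siAtg5. Fdft1 and Idi1 share 31.9% and 27.1% of their 31-base words with other transcripts.

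Among 10 genes of efflux and oxysterols, many of them targets of the liver X receptors, 2 rose, 7 fell and 1 did not pass the test, and 1 rose and 9 fell after median-of-ratios scaling. Abcg1, a transporter that loads cholesterol onto lipoproteins, was at 59.7, 61.7 and 78.1 FPKM in the LPS libraries and 16.1, 20.9, 18.04, 15.03 and 17.6 FPKM in the LPS+siAtg5 libraries. It fell by 1.86 on the log2 scale (SE 0.11, adjusted p = 4e-08). Abca1, the transporter that loads apolipoproteins, was at 99.5, 98.8 and 61.7 FPKM in the LPS libraries and 34.3, 36.1, 33.6, 36.3 and 37.2 FPKM in the LPS+siAtg5 libraries. It fell by 1.23 on the log2 scale (SE 0.13, adjusted p = 6e-06). Pltp and Ch25h, a lipid transfer protein and the enzyme for an antiviral oxysterol, fell by 1.305 and 1.17, while Lpcat3, which puts polyunsaturated fatty acids into phospholipids, rose by 0.69 on the log2 scale (SE 0.067, adjusted p = 2.6e-06), with 12.04 to 13.7 FPKM in LPS and 19.5 to 22.6 FPKM in LPS+siAtg5.

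**Figure D5:**
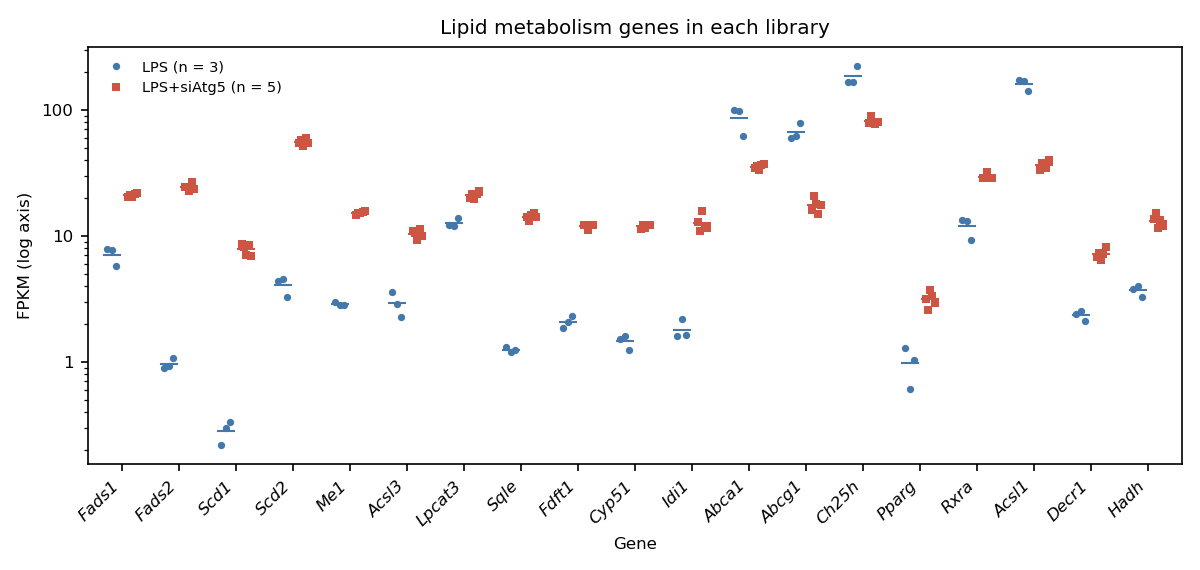
FPKM of 19 genes of fatty acid and cholesterol synthesis, cholesterol export, nuclear receptors and fatty acid oxidation on a log axis in each LPS library (circles, n = 3) and LPS+siAtg5 library (squares, n = 5), with a line at each group mean. The desaturases and cholesterol synthesis genes are higher in LPS+siAtg5, and Abca1, Abcg1, Ch25h and Acsl1 are lower.

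PPARG is a nuclear receptor that polyunsaturated fatty acids bind and that represses inflammatory genes in macrophages, as a dimer with RXR. Of 17 tested PPAR and RXR genes, 11 rose, 1 fell and 5 did not pass the test, a share of rises near the 61% of all tested genes, but after median-of-ratios scaling 9 rose and 7 fell. Pparg was low in both groups, at 1.29, 0.61 and 1.04 FPKM in the LPS libraries and 3.13, 2.58, 3.72, 3.34 and 2.91 FPKM in the LPS+siAtg5 libraries. It rose by 1.07 on the log2 scale (SE 0.12, adjusted p = 1e-05), but after quantile normalization by 0.30 with an adjusted p of 0.051. Rxra was at 13.3, 13.2 and 9.33 FPKM in the LPS libraries and 28.9, 28.8, 31.9, 28.8 and 29 FPKM in the LPS+siAtg5 libraries. It rose by 1.25 on the log2 scale (SE 0.098, adjusted p = 4.6e-07). The target genes Angptl4, an inhibitor of lipoprotein lipase, and Pdk4, which shifts fuel use from glucose to fat, were near 0 in LPS. Angptl4 was at 0.09, 0.04 and 0.1 FPKM in the LPS libraries and 2.25, 2.75, 2.4, 2.6 and 3.45 FPKM in the LPS+siAtg5 libraries. Pdk4 was listed at 0 in 2 LPS libraries and at 0.18 FPKM in the other, and at 2.7 to 3.56 FPKM in LPS+siAtg5. Fabp7, a fatty acid carrier of astrocytes and radial glia that is on the astrocyte list too, rose by 3.94 on the log2 scale (SE 0.12, adjusted p = 2.9e-10), with 3.99 to 5.72 FPKM in LPS and 76.05 to 105 FPKM in LPS+siAtg5.

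Most fatty acid oxidation and respiration genes rose too. Of 18 oxidation genes, 15 rose, 3 fell and 0 did not pass the test, against 61% higher and 14.9% lower over all tested genes. Their median was 0.72 (0.40 relative to the median gene), and 13 rose and 4 fell after median-of-ratios scaling. Hadh, which acts on shorter chains, rose by 1.59 on the log2 scale (SE 0.093, adjusted p = 4.2e-08), with 3.29 to 4.03 FPKM in LPS and 11.6 to 15.3 FPKM in LPS+siAtg5, and Decr1, which is needed for polyunsaturated chains, by 1.28 on the log2 scale (SE 0.082, adjusted p = 8.6e-08). The 2 acyl-CoA synthetases named by the rule differed in sign. Acsl3 was at 3.59, 2.89 and 2.27 FPKM in the LPS libraries and 10.96, 10.6, 9.3, 11.2 and 9.92 FPKM in the LPS+siAtg5 libraries, a rise of 1.55. Acsl1, the form that LPS induces in macrophages, was at 171, 170.1 and 141 FPKM in the LPS libraries and 33.3, 38.1, 35.96, 34.3 and 40.2 FPKM in the LPS+siAtg5 libraries. It fell by 2.11 on the log2 scale (SE 0.079, adjusted p = 1.4e-09). All 27 respiratory chain genes rose by between 0.31 and 1.15, against 61% higher over all tested genes. Their median was 0.48 (0.16 relative to the median gene), but 4 rose and none fell after median-of-ratios scaling. Ndufa4 rose by 1.15 on the log2 scale (SE 0.064, adjusted p = 2.9e-08) and Cox6c by 0.88 on the log2 scale (SE 0.11, adjusted p = 1.6e-05). Similarly, 30 of 31 cytosolic ribosomal protein genes rose, but 4 rose and 4 fell after median-of-ratios scaling. Rps2 rose by 0.93 on the log2 scale (SE 0.057, adjusted p = 6.3e-08), with 48.8% of its 31-base words shared with other transcripts, and Rps24 fell by 0.25 on the log2 scale, or -0.57 relative to the median gene (SE 0.064, adjusted p = 0.004).

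Glycolysis and hypoxia genes were mixed. Of 29 tested, 13 rose, 6 fell and 10 did not pass the test, but after median-of-ratios scaling 7 rose and 18 fell. Hif1a, the inducible subunit of the hypoxia factor, fell by 0.51 on the log2 scale (SE 0.045, adjusted p = 1.2e-06), with 79.5 to 85.8 FPKM in LPS and 56.99 to 60.2 FPKM in LPS+siAtg5, and the glucose transporter gene Slc2a1 by 0.45 on the log2 scale (SE 0.088, adjusted p = 0.00064). Ndrg1 and Adm, which this factor induces, rose by 2.87 and 1.79, Ndrg1 with 0.65 to 2.14 FPKM in LPS and 13.1 to 15.6 FPKM in LPS+siAtg5 and Adm with 2.55 to 4.04 FPKM in LPS and 12.2 to 16.03 FPKM in LPS+siAtg5.

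Most listed antioxidant genes rose, and the gene of their regulator NRF2 fell. NRF2, encoded by Nfe2l2, drives these genes and is held in check by KEAP1, which p62 can bind. Of 24 listed genes, 19 rose, 3 fell and 2 did not pass the test, against 61% higher over all tested genes, with a median of 0.79 (0.47 relative to the median gene), and 15 rose and 5 fell after median-of-ratios scaling. Nfe2l2 was at 99.3, 94.8 and 92.9 FPKM in the LPS libraries and 64.6, 67.5, 65.1, 67.3 and 66.6 FPKM in the LPS+siAtg5 libraries. It fell by 0.52 on the log2 scale (SE 0.043, adjusted p = 6.9e-07). Keap1 fell by 0.25 on the log2 scale, or -0.57 relative to the median gene (SE 0.059, adjusted p = 0.0023). Gclm, a subunit of the enzyme that starts glutathione synthesis, was at 11.3, 13.5 and 16.6 FPKM in the LPS libraries and 60.7, 63.03, 64.4, 59.3 and 63.4 FPKM in the LPS+siAtg5 libraries. It rose by 2.11 on the log2 scale (SE 0.093, adjusted p = 4.7e-09). Nqo1, a quinone reductase, was at 1.2, 1.13 and 1.48 FPKM in the LPS libraries and 7.25, 9.09, 8.05, 8.59 and 8.92 FPKM in the LPS+siAtg5 libraries. It rose by 2.05 on the log2 scale (SE 0.087, adjusted p = 3.6e-09). Gsta4, a glutathione transferase for lipid aldehydes, rose by 3.31 on the log2 scale (SE 0.12, adjusted p = 8.9e-10), with 0.21 to 0.6 FPKM in LPS and 10.3 to 14.3 FPKM in LPS+siAtg5. Sod2, the mitochondrial superoxide dismutase, which NF-kB also induces, fell by 0.33 on the log2 scale (SE 0.048, adjusted p = 6.9e-05).

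Of 17 growth factors and their binding proteins linked to tissue repair, 13 rose, 2 fell and 2 did not pass the test. Over all tested genes 61% were higher and 14.9% lower. After median-of-ratios scaling 11 of the list rose and 4 fell. Without LPS replicate 2, 1 of the list fell. Igfbp2, a binding protein of insulin-like growth factors, was at 0.87, 1.97 and 2 FPKM in the LPS libraries and 88.8, 104, 83.3, 97.2 and 79.4 FPKM in the LPS+siAtg5 libraries. It rose by 5.16 on the log2 scale (SE 0.15, adjusted p = 2.4e-10). Igfbp3 and Igfbp5 rose by 3.78 and 3.23. Igf1 itself was at 40.1, 39.5 and 47.6 FPKM in the LPS libraries and 38.3, 36.1, 35.8, 35.9 and 34.2 FPKM in the LPS+siAtg5 libraries. It fell by 0.22 on the log2 scale (SE 0.066, adjusted p = 0.0094), and by 0.14 without LPS replicate 3. Fgf2, a growth factor for glial progenitors, was at 0.27, 0.51 and 0.29 FPKM in the LPS libraries and 8.25, 8.7, 7.73, 8.37 and 7.86 FPKM in the LPS+siAtg5 libraries. It rose by 2.76 on the log2 scale (SE 0.079, adjusted p = 2.4e-10) from levels under 1 FPKM.

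Matrix proteases differed by member, and the named inhibitors rose. Of 12 tested, 7 rose and 5 fell, against 61% higher and 14.9% lower over all tested genes, and 3 fell without LPS replicate 2. All 5 that fell were proteases: Mmp13 fell by 1.46 on the log2 scale (SE 0.062, adjusted p = 3.9e-09), with 357 to 423 FPKM in LPS and 129 to 146 FPKM in LPS+siAtg5, Mmp8 by 1.31 and Mmp9 by 0.90. Mmp12 and Mmp14 fell by 0.27 and 0.23. Mmp3, which was near 1 FPKM in LPS, rose by 2.15 on the log2 scale (SE 0.18, adjusted p = 9e-07), to between 5.45 and 11.6 FPKM. The inhibitors Timp1, Timp2 and Timp3 rose by 2.77, 2.28 and 3.19. Timp2 was at 13.9, 14.9 and 16.1 FPKM in the LPS libraries and 69.8, 77.01, 76.5, 83.03 and 75.6 FPKM in the LPS+siAtg5 libraries. The groups lay far apart, and Timp2 rose by 2.28 on the log2 scale (SE 0.064, adjusted p = 2e-10).

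Most cell cycle genes rose. Of 31 tested, 28 rose and none fell, against 61% higher and 14.9% lower over all tested genes, with a median of 0.82 (0.51 relative to the median gene). After quantile normalization 15 rose and 5 fell, and after median-of-ratios scaling 22 rose and 1 fell. Without LPS replicate 2 the count that fell was 1. Rrm2, which makes deoxynucleotides, was at 0.43, 0.48 and 0.52 FPKM in the LPS libraries and 4.58, 3.64, 4.21, 3.81 and 4.42 FPKM in the LPS+siAtg5 libraries. It rose by 1.79 on the log2 scale (SE 0.08, adjusted p = 5.3e-09). Top2a and Ccnb1, genes of dividing cells, rose by 1.47 and 1.57 and stayed under 5 FPKM in all 8 libraries. The most abundant of the named genes, Cdkn1a, encodes the cell cycle inhibitor p21. It was at 172, 159 and 170.2 FPKM in the LPS libraries and 516, 494, 526, 501 and 518 FPKM in the LPS+siAtg5 libraries. It rose by 1.61 on the log2 scale (SE 0.045, adjusted p = 2.2e-10).

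Microglia identity genes were mixed, although their sum was level. Of 27 tested of 30 listed, 13 rose, 8 fell and 6 did not pass the test, against 61% higher and 14.9% lower over all genes. After median-of-ratios scaling 7 rose and 15 fell. Csf1r, the receptor that microglia need to survive, was at 1029, 1005 and 572 FPKM in the LPS libraries and 438, 431, 452, 422 and 472 FPKM in the LPS+siAtg5 libraries. It fell by 0.92 on the log2 scale (SE 0.16, adjusted p = 0.00026), and by 1.20 without LPS replicate 3. P2ry13, a purine receptor of resting microglia, fell by 1.23 on the log2 scale (SE 0.08, adjusted p = 1e-07), with 12.1 to 13.7 FPKM in LPS and 4.46 to 5.77 FPKM in LPS+siAtg5, and the factor gene Runx1 by 1.04 on the log2 scale (SE 0.082, adjusted p = 4.5e-07). Tmem119, which marks resident microglia, was at 1.51, 1.88 and 1.91 FPKM in the LPS libraries and 6.34, 6.11, 4.76, 5.72 and 6.84 FPKM in the LPS+siAtg5 libraries. It rose by 1.33 on the log2 scale (SE 0.10, adjusted p = 4.2e-07). Sall1, the factor that keeps microglial identity, was at 0.45, 0.55 and 0.53 FPKM in the LPS libraries and 3.34, 3.85, 3.64, 3.6 and 3.21 FPKM in the LPS+siAtg5 libraries. It rose by 1.58 on the log2 scale (SE 0.073, adjusted p = 6.4e-09). Olfml3, a secreted protein of microglia, rose by 1.85 on the log2 scale (SE 0.074, adjusted p = 2.2e-09), with 1 to 1.27 FPKM in LPS and 6.37 to 7.34 FPKM in LPS+siAtg5. Sparc, which is on the microglia list and is also made by astrocytes and fibroblasts, was at 2.8, 3.17 and 4.61 FPKM in the LPS libraries and 124, 145, 127, 145 and 126 FPKM in the LPS+siAtg5 libraries. It rose by 4.91 on the log2 scale (SE 0.11, adjusted p = 6.4e-11). The complement genes C1qb and C1qc were at 853 to 1072 and 830.4 to 1001 FPKM in LPS and differed by 0.02 and 0.08, which did not pass the test (adjusted p = 0.8 and 0.3). Without LPS replicate 3 both passed, at 0.13 and 0.16, and after median-of-ratios scaling both turned to -0.41 and -0.36.

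Of 18 tested genes of the disease-associated microglia state, 7 rose and 7 fell, and after median-of-ratios scaling 2 rose and 14 fell. Cst7, an inhibitor of lysosomal proteases, fell by 1.58 on the log2 scale (SE 0.12, adjusted p = 3.6e-07), with 78.2 to 115 FPKM in LPS and 26.4 to 32.4 FPKM in LPS+siAtg5, and Lgals3, a galectin that marks damaged lysosomes, by 1.05 on the log2 scale (SE 0.12, adjusted p = 8.5e-06). Cd9, a tetraspanin, rose by 1.63 on the log2 scale (SE 0.067, adjusted p = 3e-09), with 18.3 to 21.5 FPKM in LPS and 56.01 to 64.7 FPKM in LPS+siAtg5.

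Phagocytosis genes differed by role. Of 9 Fc and complement receptors, 1 rose and 6 fell. Fcgr2b, the inhibitory Fc receptor, was at 446, 484 and 515 FPKM in the LPS libraries and 197, 210.3, 207, 199 and 215 FPKM in the LPS+siAtg5 libraries. It fell by 1.22 on the log2 scale (SE 0.056, adjusted p = 6.1e-09). Of 17 engulfment and scavenger genes, 9 rose and 5 fell, against 61% higher and 14.9% lower over all tested genes. Over both roles 8 rose and 18 fell after median-of-ratios scaling. The 3 secreted bridges between dying cells and phagocytes rose: Mfge8, with 3.2 to 3.84 FPKM in LPS and 24.2 to 26 FPKM in LPS+siAtg5, by 2.56 on the log2 scale (SE 0.062, adjusted p = 8.4e-11), Pros1 by 1.76 and Gas6 by 1.37. Whether these rises lay in microglia or in other cells was not tested. The scavenger receptor gene Stab1 fell by 1.06 on the log2 scale (SE 0.11, adjusted p = 6.4e-06), with 91.6 to 133 FPKM in LPS and 51.2 to 63.04 FPKM in LPS+siAtg5. Of 14 complement genes, 7 rose and 3 fell, against the same 61% and 14.9%. C3, the central component that LPS induces, was at 558, 549.7 and 593 FPKM in the LPS libraries and 268, 242, 273, 259 and 264 FPKM in the LPS+siAtg5 libraries. It fell by 1.11 on the log2 scale (SE 0.051, adjusted p = 6.8e-09). The inhibitors Serping1 and Cd55 rose by 1.96 and 1.99 from levels under 2 FPKM.

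Lysosomal genes, the end point of autophagy, were mixed, and a smaller share of them rose than the 61% of all tested genes. Of 38 tested, 19 rose, 9 fell and 10 did not pass the test, with a median of 0.14 (-0.18 relative to the median gene), and 10 rose and 24 fell after median-of-ratios scaling. Ctsf, a cathepsin, was at 2.16, 2.22 and 2.61 FPKM in the LPS libraries and 5.86, 6.39, 7.1, 8.15 and 9.4 FPKM in the LPS+siAtg5 libraries. It rose by 1.32 on the log2 scale (SE 0.13, adjusted p = 2.4e-06). Ctsc, which activates other proteases, fell by 0.41 on the log2 scale, or -0.73 relative to the median gene (SE 0.043, adjusted p = 5e-06). Hexa, a ganglioside hydrolase, rose by 0.89 on the log2 scale (SE 0.047, adjusted p = 1.8e-08) and Cd63, a tetraspanin of late endosomes, by 0.87 on the log2 scale (SE 0.051, adjusted p = 4.1e-08). Gla, the galactosidase of globotriaosylceramide, fell by 0.93 on the log2 scale (SE 0.064, adjusted p = 1.6e-07), with 68.4 to 81.2 FPKM in LPS and 36.1 to 39.5 FPKM in LPS+siAtg5, and the lysosomal factor gene Mitf by 0.92 on the log2 scale (SE 0.084, adjusted p = 1.7e-06). Lamp2, a membrane protein needed for fusion with autophagosomes, was at 411, 382 and 444 FPKM in the LPS libraries and 355, 343, 358, 345 and 338 FPKM in the LPS+siAtg5 libraries. It fell by 0.24 on the log2 scale, or -0.56 relative to the median gene (SE 0.053, adjusted p = 0.0016). Among 17 subunits of the proton pump that acidifies lysosomes, 5 rose and 4 fell, but none rose and 14 fell after median-of-ratios scaling. Tcirg1 was at 213, 227 and 251 FPKM in the LPS libraries and 115, 115, 112, 106 and 107 FPKM in the LPS+siAtg5 libraries. It fell by 1.04 on the log2 scale (SE 0.059, adjusted p = 3.2e-08), the only subunit to change at least 2-fold, and Atp6v0c, of the ring that carries protons, fell by 0.31 on the log2 scale, or -0.63 relative to the median gene (SE 0.066, adjusted p = 0.0011), while Atp6v0a2, a form of the subunit that Tcirg1 encodes, rose by 0.51 on the log2 scale, or 0.19 relative to the median gene (SE 0.062, adjusted p = 1.7e-05).

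Control genes did not give a common scale. Of 14 housekeeping genes, 7 rose and 3 fell, but none rose and 10 fell after median-of-ratios scaling, and 4 rose without LPS replicate 1. Actb was at 2415, 2562 and 2789 FPKM in the LPS libraries and 2709.9, 2691, 2687, 2540.4 and 2738 FPKM in the LPS+siAtg5 libraries, a difference of 0.05 that did not pass the test and turned to -0.39 after median-of-ratios scaling. Hprt rose by 0.62 on the log2 scale, or 0.31 relative to the median gene (SE 0.068, adjusted p = 7.6e-06) and Polr2a fell by 0.66 on the log2 scale, or -0.98 relative to the median gene (SE 0.076, adjusted p = 1.1e-05).

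The other groups given LPS without transfection place these levels, as ranges with no test. Gfap was at 0.64 to 1.08 FPKM in LPS+Baf A1 (n = 5) and 0.36 to 1.25 FPKM in LPS+CLA (n = 6), against 114 to 134 FPKM in LPS+siAtg5. Fads2 was at 1.16 to 1.81 and 0.27 to 0.74 FPKM in these groups, so that only the transfected libraries were above 2 FPKM among these 4 groups. Nos2 was at 211 to 238 FPKM in LPS+Baf A1 and 83.4 to 164 FPKM in LPS+CLA, all above the 13.9 to 19.2 FPKM of LPS+siAtg5. Il1b was higher in both than in LPS, at 3021 to 3925 and 2412 to 4229.7 FPKM, while LPS+siAtg5 lay below LPS. For other genes the order differed. Rsad2 was at 122 to 154 FPKM in LPS+CLA, below the 205 to 271 FPKM of LPS+siAtg5. Il10 reached 18.1 to 25.8 FPKM in LPS+CLA, overlapping LPS+siAtg5, and Cd86 was at 7.31 to 8.8 FPKM there.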

How the data were processed

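Poly(A) RNA from Trizol extracts of cultured mouse microglia was sequenced on a NovaSeq6000, per the labels' protocols. The authors deposited FPKM, rounded to 2 decimals, with 1 value per gene symbol, per the file headers. The submitters' processing notes name CASAVA 1.7, fastp 0.18.0, Bowtie2 2.2.8, HISAT2 and StringTie 1.3.1. Genome build, annotation and strand setting: not given in the sources used here. Low values fell on no common step between libraries, so no read counts were recovered and the depth is unknown. FPKM share a library's fragments between genes, so a few abundant genes move all other values.

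Libraries were grouped by title. Genes that reached 1 FPKM in 3 or more of the 8 libraries were fitted as log2(FPKM + 1) with limma 3.58.1 in R 4.3.3 (mean-variance trend, robust; 6 residual degrees of freedom), with Benjamini-Hochberg adjustment over 10886 genes. The threshold for a call was an adjusted p of 0.05. The script was tested on simulated data. The members and the gene lists were chosen with earlier results of these data known. Named were Atg5, Pparg, Fads1, Fads2, Tnf, Il1b, Nos2, Arg1 and the LC3 conjugation genes, the 12 largest rises and 12 largest falls among called genes with at least 5 FPKM in the higher group, no overlap and no predicted-gene name, up to 4 called members of each list in each direction, and up to 2 abundant members that were not called. Exceptions are said in place, and some genes that the rule names are not reported here. Gene lists overlap in part. Positions are from GENCODE M21 on GRCm38, and 31-base words shared between its transcripts were counted. Beside the genes said in place, Psme2, Actb, Bnip3l, Ccnb1, Cd9, Odc1, Sod2, Timp3 and Tlr1 share at least 20% of theirs. Alternatives covered pseudocount, filter, scaling, fit and each library left out.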

Additional observations from a re-analysis of the deposited data

Results flagged for a closer look

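In groups of 5, a library whose gap to the nearest other library exceeds Dixon's 95% critical value was picked out, which chance does in about 1 of 20 groups. Of 202 printed genes examined, 17 had such an LPS+siAtg5 library. The highest library was the one apart for Adar (replicate 3, 68.9 FPKM), Ccl8 (replicate 2, 9.33), Ch25h (replicate 2, 88.6), Lgals3 (replicate 2, 213.8), Mmp8 (replicate 5, 16.3), Mmp9 (replicate 5, 95.4), Prkra (replicate 5, 11.8), Psme2 (replicate 4, 459), Rps24 (replicate 4, 727), Rxra (replicate 3, 31.9), Stfa3 (replicate 2, 2.11) and Top2a (replicate 4, 4.84). The lowest library was apart for Actb (replicate 4, 2540.4 FPKM), Arg1 (replicate 3, 1.41), Fdft1 (replicate 3, 11.2), Rsad2 (replicate 5, 205) and Tirap (replicate 2, 12.3). None of these libraries carried its gene across to the range of the LPS libraries, except for Actb, whose groups overlapped with every library included.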

How the results depend on the processing

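Scaling decided how the calls divided. Higher genes made up 80.4% of all calls as deposited, 44.7% after median-of-ratios scaling and 47.4% after quantile normalization, and the median tested gene went from 0.32 to -0.06 and -0.03 on the log2 scale. After median-of-ratios scaling 3470 genes were higher and 4285 lower, 1059 and 620 of them at least 2-fold. After quantile normalization 3594 were higher and 3982 lower, 602 and 481 of them at least 2-fold. With a filter of 5 FPKM, which tests fewer genes, 793 were at least 2-fold higher. The other settings kept these counts within 1.5 times, the farthest being 2327 genes at least 2-fold higher with a pseudocount of 0.1. Leaving out each library in turn gave 6418 to 6611 higher and 1470 to 1936 lower, and 1568 to 1658 and 243 to 267 at least 2-fold. Atg5 fell under every alternative run.

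Of 202 printed genes examined, 172, not counting Atg5, gave the same direction and side of the threshold under all alternatives that tested them. There were 20 alternatives, and the filter of 5 FPKM left some of these genes out. Median-of-ratios scaling turned Actb to -0.39, Atg12 to -0.29, Atg4a to -0.18, Atg4b to -0.24, Atg7 to -0.19, C1qb to -0.41, C1qc to -0.36, Map1lc3b to -0.25, Psme2 to -0.25 and Tgfb1 to -0.19. Quantile normalization turned Atg4a to -0.050, Atg7 to -0.047 and Havcr2 to -0.012. The cause was not tested. Of the list counts, MHC class I and costimulation genes that rose went from 1 to 2 without LPS replicate 2 and without LPS+siAtg5 replicate 1, and PPAR and mesenchymal genes that fell from 1 to 2 without LPS replicate 1 or 2 and without LPS+siAtg5 replicate 4.

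Same-numbered libraries did not deviate together (correlations of 0.15, -0.0043 and -0.11 for numbers 1, 2 and 3), so the numbers were not taken as pairs. With a replicate block on them, 6081 genes were higher and 1380 lower (1579 and 245 at least 2-fold), and Atg4d, Atg7, Igf1, Psme2 and Rb1cc1 were no longer called.

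No counts were used here, so no counting interval stands behind any value, and precision rests on 3 and 5 libraries. Of the tested genes, 1571 had an LPS mean under 1 FPKM, where the pseudocount compresses the difference. With a pseudocount of 0.1 the rise of Pdk4 was 4.45 in place of 1.91 and that of Gfap 5.93 in place of 5.41.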
